A study of Mus musculus with 16 samples.

Results

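Nascent transcription was compared between 3 libraries from mouse embryonic stem cells with a large-interval edit and 11 from clones grouped as site deletions. These were 14 of the 16 libraries of the series. The large-interval edits were 680kinv, 100kdel and 245kdel, names that point to an inversion and a pair of deletions, with 1 library each. The site-deletion clones were a.del, b.del, ac.del, bc.del and 4k.b.c with 1 library each, and c.del, ab.del and abc.del with 2 each. The label 4k.b.c does not state a deletion, and its place in this group is assumed. The remaining 2 libraries came from the unedited F121-9 line and entered no choice of genes. All cells were F121-9 or derived from it, a hybrid of castaneus (cast) and 129 mice grown in 2i plus LIF, and all were labelled with 2 mM bromouridine for 30 min. The labels give neither the positions of the sites and intervals nor the edited copy. Libraries of 1 label, called replicates 1 and 2 here, carry different clone codes. These were A6 and E2 for abc.del, D10 and D12 for ab.del, and B11 and A12 for c.del. The labels do not say whether such clones were separate edits. The 3 large-interval libraries are 3 different edits, so the p-values below measure the spread between these samples.

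In Bru-seq, cells take up bromouridine, and the RNA made during the pulse is captured with an antibody, so that the signal over a gene follows its transcription rather than the amount of stable RNA. Embryonic stem cells in 2i plus LIF are held in the naive state by inhibition of ERK signalling and GSK3 and by STAT3 activation. Many genes of meiosis and the germline are repressed in somatic and stem cells through promoter DNA methylation and through repressors such as the non-canonical polycomb complex PRC1.6, whose MGA-MAX and E2F6 subunits bind the letters CACGTG and GCGGGAA.

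Autosomal reads over 1 line per gene ranged from 8.6 M to 31.3 M per library (M, 1000000 reads), and values are in CPM, reads per 1000000, as the mean of both copies. The stem cell genes Nanog (99.7 to 275 CPM), Esrrb (577 to 1040 CPM) and Zfp42 (242 to 390 CPM) were transcribed in every library. Defining markers of other cells were mostly at or near 0. The fibroblast collagen gene Col1a1 was at 0 in all 11 site-deletion libraries and in 1 of the 3 large-interval libraries and reached 0.220 CPM. The mesoderm gene Mesp1 was at 0 in all of them. The neural gene Pax6 gave 0.774 to 1.70 CPM in the large-interval libraries and 0.566 to 10.8 CPM in the site-deletion libraries, and the endoderm gene Gata4 gave 0.360 to 1.54 CPM over both. Of 16 fibroblast and feeder genes 5 were tested, and the list summed to 306 to 377 CPM in the large-interval and 330 to 656 CPM in the site-deletion libraries, most of it from Fn1. The part of these cells in the results was not tested. Across genes, which are not independent replicates, the log2 values of 100kdel and 245kdel correlated at r = 0.989, above the 4 pairs of libraries that share a label (0.953 to 0.978). 680kinv correlated at 0.958 and 0.955 with the 2 deletions and at 0.972 and 0.976 with the F121-9 libraries. With the F121-9 libraries, 100kdel correlated at 0.968 and 0.961, 245kdel at 0.966 and 0.958, and the site-deletion libraries at 0.924 to 0.968. The libraries fall into 2 runs of sample numbers, whose meaning the labels do not state. The first held 680kinv, 5 site-deletion libraries and both F121-9 libraries, and the second held 100kdel, 245kdel and 6 site-deletion libraries. 680kinv correlated at 0.943 to 0.969 with the 5 site-deletion libraries of the first run. With the 6 of the second run it correlated at 0.925 to 0.946. The 2 deletions correlated with those 6 at 0.931 to 0.956. 100kdel and 245kdel share a run, while the ab.del and c.del pairs (0.959 and 0.953) span both runs. Within the second run, ab.del replicate 2 and ac.del, of different labels, correlated at 0.983. The share of the 129 copy in the CPM of both copies was taken as the median over the genes of a chromosome with a mean of at least 1 CPM. In a.del and 4k.b.c it was 99.9% and 100% on chromosome 1. On chromosome 12 it was 0.167% and 0.0618%, so that nearly all signal of the median gene came from cast. Leaving both libraries out is among the alternatives.

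The first question was how many genes differed between the 2 kinds of edit and in which direction. Of 13564 autosomal genes tested, 547 (4.03%) passed limma at a Benjamini-Hochberg adjusted p of 0.05, and 440 of them (3.24%) were higher and 107 (0.789%) lower in the large-interval edits. At an unadjusted p under 0.05 there were 2322 genes. All 440 higher genes and 106 of the 107 lower genes (0.781%) had 1 direction in both runs, which 8657 of all genes (63.8%) also had. The runs hold the same libraries as the call, so this count is no independent support. The 3 and the 11 libraries did not overlap for 338 of the higher genes (2.49% of all tested) and 60 of the lower genes (0.442%), against 561 (4.14%) and 146 (1.08%) of all genes tested. The called higher genes were mostly low in the site-deletion clones, with a median level of 3.17 CPM there and 12.6 CPM in the large-interval edits, and 146 of them had a mean under 1 CPM. The called lower genes had medians of 43.2 CPM and 17.9 CPM. In such bulk samples, fewer cells of a type and less RNA per cell cannot be told apart.

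**Figure D1:**
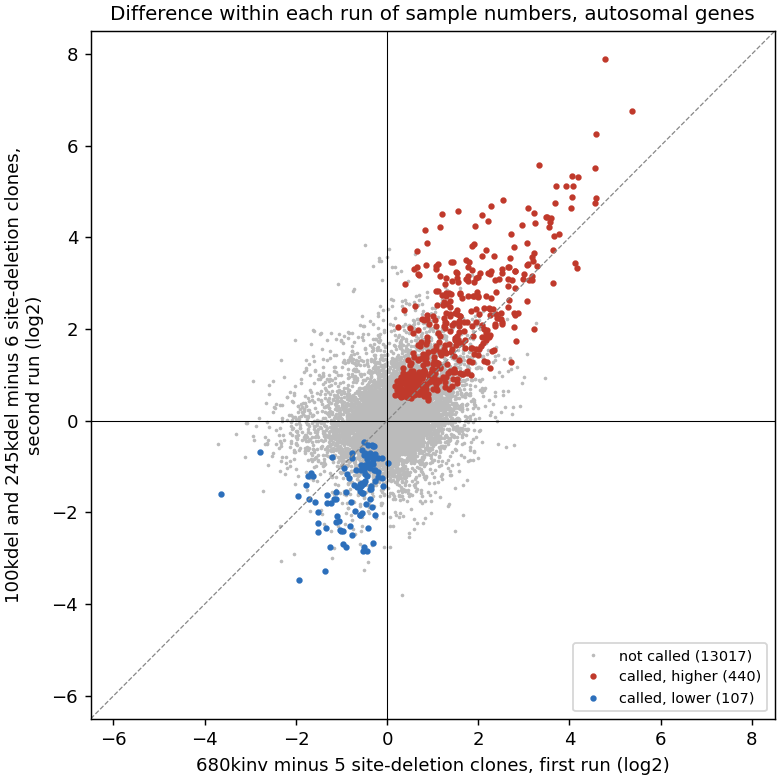
Each point is an autosomal gene, placed by its log2 difference within the first run (680kinv minus 5 site-deletion libraries, horizontal axis) and within the second run (100kdel and 245kdel minus 6, vertical axis). The 440 called higher genes (red) lie in the upper right and 106 of the 107 called lower genes (blue) in the lower left. The higher genes have medians of 1.27 on the horizontal and 1.68 on the vertical axis, and the dashed line marks equal differences.

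Within the runs, the called higher genes had a median difference of 1.27 in the first run and 1.68 in the second on the log2 scale, and the called lower genes -0.55 and -1.38. The second run holds 2 of the 3 large-interval libraries that chose these genes. Tested alone, the second run (2 libraries against 6) gave 785 genes (5.79%), 473 higher (3.49%) and 312 lower (2.3%). The first run (1 against 5) gave 0 by limma, with 929 at an unadjusted p under 0.05, 11 by edgeR and 81 by DESeq2. The interaction of edit and run gave 0 by limma, with 715 at an unadjusted p under 0.05, 0 by edgeR and 4 by DESeq2. The count rested on the near-identical pair of deletions: 84 genes passed without 100kdel, 85 without 245kdel, 91 (85 higher, 6 lower) with the pair averaged into 1 value, and 643 without 680kinv. In all 4 of those fits 70 genes passed, 67 of them higher.

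The F121-9 libraries were set beside both kinds of edit. Genes said below to rise or fall did so relative to the site-deletion clones, not relative to F121-9. The median level of the called higher genes was 8.80 CPM in 680kinv, 13.5 CPM in 100kdel and 14.1 CPM in 245kdel, 6.23 and 8.42 CPM in the F121-9 libraries, and 2.39 to 4.43 CPM in the site-deletion libraries. The called lower genes had medians of 21.4, 14.8 and 16.7 CPM in the large-interval libraries, 24.5 and 21.4 CPM in F121-9, and 28.3 to 54.4 CPM in the site-deletion libraries. In a limma fit of all 16 libraries, added after the data were seen, 0 genes (0%) passed between the large-interval edits and F121-9, with 454 at an unadjusted p under 0.05. Between the site-deletion clones and F121-9, 49 genes (0.361%) passed, 12 higher and 37 lower. Among the 37 were Nlrp4c, Cox7b2 and Sycp1 (limma adjusted p = 0.0016, 0.0044 and 0.028). Platr8 was among the 12 (limma adjusted p = 0.019). These comparisons share libraries with the first one, rest on 3 against 2 and 11 against 2 libraries, and have both F121-9 libraries in the first run, so their counts are not compared.

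Among the 27 gene lists examined, genes of the germline had the most members called. The lists were chosen with earlier results of these data known, so the counts below describe the list and are no independent support. Of 22 members tested, 11 were called higher and 0 lower, beside 3.24% and 0.789% of all genes, all 22 had a positive difference, and their median was 1.53 on the log2 scale, beside 0.05 over all genes. Summed over the 22 members the level was 130 CPM in 680kinv, 262 CPM in 100kdel and 258 CPM in 245kdel. It was 113 and 127 CPM in F121-9 and 30.7 to 96.3 CPM in the site-deletion libraries, so the groups did not overlap. 680kinv exceeded every site-deletion library at 9 members and each deletion at 16, and the F121-9 libraries did so at 7 and 9. These counts by single library were not made over all tested genes, so they have no background share beside them. With the pair of deletions averaged, or without either of them, 3 members passed, namely Sycp1, Smc1b and Asz1.

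Promoters of 7 called members are shown because the repressors named above are known to bind these letters in promoters of germline genes. They are the 150 bases before the start, 5′ to 3′ on the gene's strand, from RefSeq on GRCm38.p6, with CACGTG and GCGGGAA (or its reverse complement TTCCCGC) in capitals.
Sycp1 chr3:102936101-102936250 (minus strand): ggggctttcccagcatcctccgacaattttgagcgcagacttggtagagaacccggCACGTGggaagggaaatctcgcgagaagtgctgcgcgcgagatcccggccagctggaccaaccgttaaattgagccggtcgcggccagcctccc
Smc1b chr15:85131958-85132107 (minus strand): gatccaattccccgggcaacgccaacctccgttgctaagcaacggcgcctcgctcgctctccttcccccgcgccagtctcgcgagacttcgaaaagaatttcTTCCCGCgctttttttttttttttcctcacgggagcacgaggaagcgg
Hormad1 chr3:95559527-95559676 (plus strand): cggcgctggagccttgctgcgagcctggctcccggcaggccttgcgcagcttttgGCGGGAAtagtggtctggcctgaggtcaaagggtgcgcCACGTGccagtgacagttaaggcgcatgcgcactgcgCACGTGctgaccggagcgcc
Slc25a31 chr3:40708721-40708870 (plus strand): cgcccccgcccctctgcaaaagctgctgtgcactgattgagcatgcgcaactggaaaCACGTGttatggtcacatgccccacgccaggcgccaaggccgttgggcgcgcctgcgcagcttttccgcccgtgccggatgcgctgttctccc
Brdt chr5:107331044-107331193 (plus strand): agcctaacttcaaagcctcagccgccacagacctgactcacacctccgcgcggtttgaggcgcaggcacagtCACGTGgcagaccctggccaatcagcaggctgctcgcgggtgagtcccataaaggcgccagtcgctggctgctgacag
Tuba3b chr6:145615813-145615962 (plus strand): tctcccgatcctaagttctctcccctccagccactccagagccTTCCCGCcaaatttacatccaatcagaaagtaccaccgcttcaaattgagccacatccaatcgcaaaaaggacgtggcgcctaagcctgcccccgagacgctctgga
Asz1 chr6:18109062-18109211 (minus strand): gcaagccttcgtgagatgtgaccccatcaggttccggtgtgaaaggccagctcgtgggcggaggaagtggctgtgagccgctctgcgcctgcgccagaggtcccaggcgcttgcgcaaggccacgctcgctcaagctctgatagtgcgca
Both motifs were searched on both strands of the 300 bases from 250 before to 50 after the start, and a match of one can share a base with a match of the other. CACGTG reads the same on both strands. CACGTG stood in 10 of the 20 germline members with a RefSeq promoter (50%) and in 10.4% of the promoters of all tested genes. GCGGGAA stood in 8 of 20 (40%) and in 8.58%. Among all called higher genes the shares were 7.72% and 8.31%, near those of all genes. Among the 10 called members with a promoter the counts were 4 (40%) and 5 (50%). Members not called held them too: CACGTG in Ddx4, Mael, Sycp3, Tdrd1, Stk31 and Mov10l1, and GCGGGAA in Ddx4, Sycp3 and Rpl10l. The shares describe a list of germline genes, and whether the letters go with the rise was not tested. Of the called members Asz1, Dazl and Syce1 held neither in this window. These are matches of letters, not measured binding sites.

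Sycp1 (mm10 3:102818499-102936100, minus strand), the transverse filament of the synaptonemal complex, reached 18.9 CPM in 680kinv, 41.5 CPM in 100kdel and 42.7 CPM in 245kdel. The site-deletion libraries ranged from 0.651 to 5.24 CPM with a median of 1.66 CPM, and F121-9 gave 19.1 and 14.5 CPM. All 3 large-interval libraries and both F121-9 libraries lay above every site-deletion library, and the difference was 4.06 ± 0.51 (log2, SE; limma adjusted p = 0.00018). Smc1b (15:85064689-85131957, minus strand), the meiotic cohesin subunit, gave 27.2, 45.2 and 42.6 CPM against 0.638 to 5.75 CPM, with 12.3 and 26.6 CPM in F121-9, a difference of 3.90 ± 0.48 (limma adjusted p = 0.00014). Asz1 (6:18050964-18109061, minus strand), which acts in the piRNA pathway, gave 1.70, 4.13 and 3.99 CPM, and its site-deletion libraries held 12 reads in all, with 6 of 11 at 0. The Asz1 difference was 4.63 ± 0.43 (limma adjusted p = 1.1e-05), and F121-9 lay between the groups at 0.662 and 0.566 CPM. Slc25a31, the germ cell ADP/ATP carrier, gave 2.04, 6.47 and 8.48 CPM against 0.0519 to 1.57 CPM, with 1.27 and 1.84 CPM in F121-9. Brdt, the testis bromodomain protein, gave 2.22, 5.55 and 5.59 CPM against 0.223 to 1.3 CPM, with 1.15 and 1.45 CPM in F121-9. Hormad1, a protein of the meiotic chromosome axis, gave 11.1, 17.9 and 14.3 CPM against 2.09 to 7.59 CPM, with 11.3 and 14.9 CPM in F121-9. In these 6 genes no site-deletion library reached the lowest large-interval library, which held for 561 (4.14%) of all genes tested. Sycp1, Slc25a31 and Hormad1 lie on chromosome 3, where the median 129 share was 31.1% in c.del replicate 1 and 33.3% in ac.del. All 3 genes passed without either library.

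**Figure D2:**
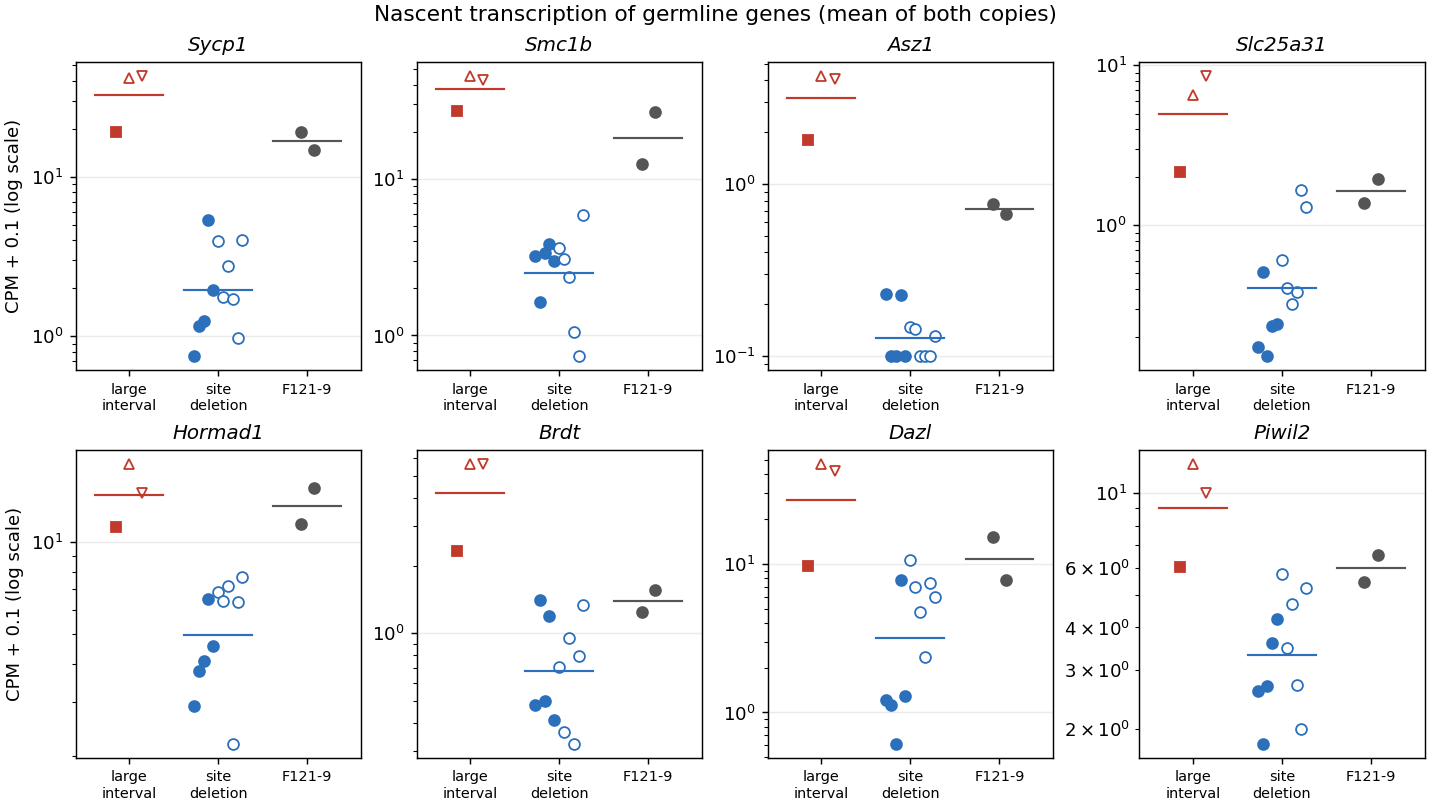
CPM + 0.1 on a log axis for 8 called germline genes in every library: 680kinv (red square), 100kdel (red triangle up), 245kdel (red triangle down), site-deletion clones (blue) and F121-9 (grey). Filled symbols are the first run and open symbols the second, and lines are group means of log2 values. For 7 of the genes the red symbols lie above every blue one, and for Dazl 680kinv lies below the highest blue one.

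The tubulin genes Tuba3a and Tuba3b rose by 2.02 and 3.47, and Piwil2, a PIWI protein of the piRNA pathway, rose by 1.45, each without overlap. The paralogs Tuba3a and Tuba3b may share reads, and Tuba3a lost its call when any 1 of 7 libraries was left out. Dazl, an RNA-binding regulator of germ cells, gave 9.53 CPM in 680kinv, 47.2 CPM in 100kdel and 41.8 CPM in 245kdel, and the site-deletion libraries reached 10.6 CPM. Syce1, of the synaptonemal complex, passed with a difference of 1.83, also overlapped and lost its call when any 1 of 10 libraries was left out. The germ cell helicase gene Ddx4 (0.47), the axis gene Sycp3 (0.83) and the meiotic entry gene Stra8 (0.95) did not pass. Nor did Mov10l1 (1.70), Rpl10l (1.54), Stk31 (1.49, limma adjusted p = 0.0505), Mael (0.99), Majin (0.92), Tdrkh (0.68), Tdrd1 (0.64) and Zcwpw1 (0.13).

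The genes that rose most outside that list were ranked by their log2 difference. This ranking favours genes near 0 in the site-deletion clones, so their low level there is no separate finding. Nlrp4c (7:6045161-6105149, plus strand), an NLR-family gene of oocytes, gave 11.6 CPM in 680kinv, 27.5 CPM in 100kdel and 28.1 CPM in 245kdel, against 0 to 0.468 CPM in the site-deletion libraries and 5.77 and 5.03 CPM in F121-9. Its difference was 6.28 ± 0.47 (limma adjusted p = 1.5e-06). Gm10754 gave 14.5, 56.1 and 63.6 CPM against 0 to 1.16 CPM, the largest difference among the named genes (6.73). Cox7b2, a testis form of a cytochrome c oxidase subunit, gave 43.3, 90.0 and 72.3 CPM against 1.01 to 6.31 CPM, and F121-9 gave 30.1 and 33.2 CPM. Other named genes that rose were 9430018G01Rik (5.79), 1700019E08Rik (5.24), Ptprtos (4.91), Rcsd1 (4.75) and Caln1 (4.36). All 8 named here passed without 100kdel, without 245kdel and with the pair averaged. Nlrp4c, 9430018G01Rik and 1700019E08Rik had site-deletion means of 0.196, 0.146 and 0.0212 CPM, and Asz1 one of 0.0344 CPM. These means lie under the filter of 0.2 CPM, so the 4 genes were tested only because of the large-interval libraries. On the 129 copy alone Caln1 did not pass (difference 0.92, limma adjusted p = 0.694). Its 129 copy gave 0 to 1.68 CPM in the large-interval libraries and its cast copy 12.9 to 27.1 CPM. By RefSeq class, 11.1% of the called higher genes were lncRNA, against 5.48% of all tested genes and 3.77% of the called lower genes.

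The genes that fell had smaller differences. Eya1 (1:14168958-14310199, minus strand), a transcriptional co-activator and phosphatase of organ development, gave 62.6 CPM in 680kinv, 22.4 CPM in 100kdel and 24.9 CPM in 245kdel. Its site-deletion libraries ranged from 66.8 to 281 CPM with a median of 115 CPM, and F121-9 gave 60.4 and 37.6 CPM. The groups did not overlap, which the choice of the 5 genes of this paragraph required. The Eya1 difference was -2.07 ± 0.41 (limma adjusted p = 0.0088). Parvb (15:84232043-84315609, plus strand), an actin-binding protein of integrin adhesions, gave 35.0, 11.9 and 16.3 CPM against 44.9 to 104 CPM. The difference was -1.87 ± 0.28 (limma adjusted p = 0.0011), and F121-9 gave 33.7 and 31.6 CPM, below 680kinv. Fgf10, a fibroblast growth factor, gave 10.6, 4.33 and 5.06 CPM against 11.9 to 65.9 CPM, with 20.9 and 8.64 CPM in F121-9. Flrt3, a membrane protein that binds FGF receptors and latrophilins, gave 3.51, 1.60 and 2.19 CPM against 4.65 to 13.6 CPM. Its F121-9 values were 4.21 and 3.51 CPM. Zfp36l1, which promotes decay of AU-rich mRNAs, gave 4.42, 5.35 and 3.73 CPM against 9.85 to 42.0 CPM, and F121-9 gave 7.23 and 4.31 CPM. Of these 5 genes only Parvb passed both without 100kdel and without 245kdel. On the cast copy alone Eya1 did not pass (difference -0.52, limma adjusted p = 0.942). Eya1 lies on chromosome 1, and its cast copy gave 0.375 CPM in a.del and 0.194 CPM in 4k.b.c, against 102 to 356 CPM in the other 9 site-deletion libraries and 30.8 to 83.9 CPM in the large-interval libraries. Zfp36l1 lies on chromosome 12, and its 129 copy gave 0 and 0.0928 CPM in these 2 libraries. Its difference was -0.67 on the 129 copy and -2.34 on the cast copy.

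**Figure D3:**
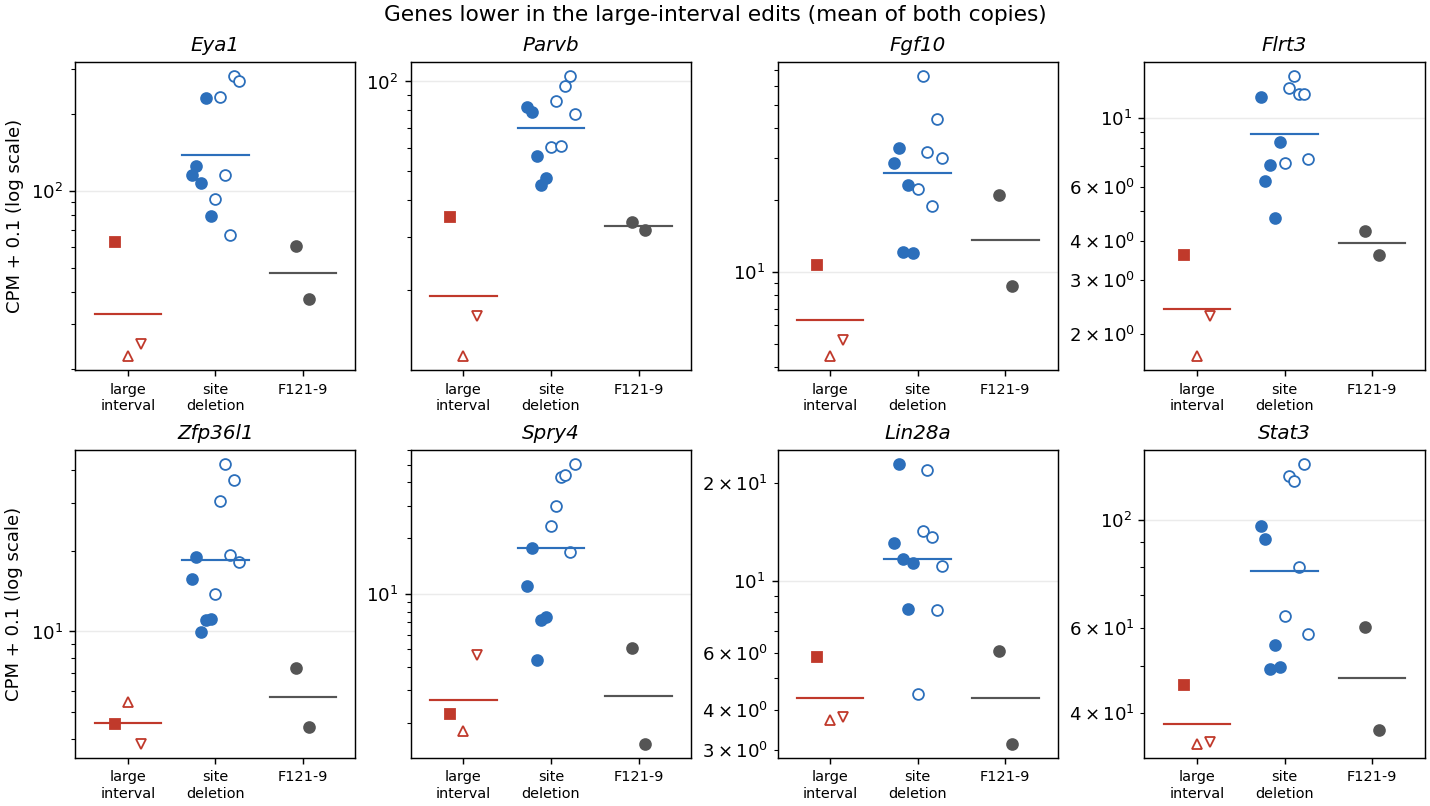
CPM + 0.1 on a log axis for 8 genes called lower, with symbols as for the germline genes. Red symbols lie below every blue symbol for Eya1, Parvb, Fgf10, Flrt3, Zfp36l1 and Stat3, and overlap them for Spry4 and Lin28a. Eya1, Parvb, Fgf10, Flrt3 and Zfp36l1 were chosen for this lack of overlap.

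Other genes that fell, also chosen for a lack of overlap, were Gap43, a growth cone protein (difference -2.14), Tmem80 (-2.21) and the metalloprotease-like gene Adamtsl1 (-1.98). The ubiquitin ligase gene Trim2 (-1.78), the noncoding Platr8 (-1.81), Zmat4 (-1.86), Nkain3 (-1.70) and Slc25a48 (-1.76) fell too. So did Irak3, an inhibitor of Toll-like receptor signalling (-1.74). Platr8 gave 0.564 to 0.892 CPM in the large-interval libraries and 0.846 and 0.215 CPM in F121-9. Tmem80 did not pass edgeR (adjusted p = 0.092), nor did Slc25a48 (adjusted p = 0.053). Irak3 lost its call when any 1 of 9 libraries was left out. Gap43, Adamtsl1, Trim2, Zmat4, Nkain3 and Slc25a48 lost theirs without 100kdel and also without 245kdel. The Platr8 call was lost without 245kdel, and that of Tmem80 without 680kinv and also without 245kdel.

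Feedback genes of FGF and ERK signalling had 1 of 12 members called, Spry4, an inhibitor of the pathway, beside 0.789% of all genes called lower. Spry4 gave 2.13, 1.71 and 4.54 CPM against 4.27 to 50.4 CPM, so that 245kdel overlapped the site-deletion range, and F121-9 gave 4.98 and 1.44 CPM. The difference was -2.73 ± 0.62 (limma adjusted p = 0.019), and the call was lost when any 1 of the large-interval libraries was left out. All 12 members had a negative difference, with a median of -0.53 beside 0.05 over all genes.

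Among pluripotency genes 3 were called lower, 1 of 12 naive and 2 of 9 core genes, beside 0.789% of all genes. Stat3, the transducer of LIF, was the naive gene called. It gave 45.6, 34.6 and 34.9 CPM against 49.2 to 130 CPM (difference -1.04, limma adjusted p = 0.047), with 60.1 and 36.9 CPM in F121-9. The core genes were Lin28a, which blocks let-7 maturation (-1.43), and the zinc finger gene Sall4 (-0.68), both with overlap. The Stat3 call was lost when any 1 of 9 libraries was left out, that of Sall4 with any 1 of 8 and that of Lin28a with any 1 of 4. None of 11 formative and primed genes passed, beside 4.03% of all genes. Of 6 two-cell-like genes 2 were called higher, beside 3.24% of all genes, Zscan4d (0.277, 0.864 and 3.57 CPM) and Gm8300 (0.296, 0.578 and 3.28 CPM). Both belong to families of near-identical copies, overlapped the site-deletion libraries and rested on 111 and 96 reads in the 3 libraries, and neither passed edgeR (adjusted p = 0.0504 and 0.070).

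The DNA methylation genes had 1 of 12 members called in each direction, beside 3.24% of all genes higher and 0.789% lower. Tet1, which oxidises 5-methylcytosine, gave 720 CPM in 680kinv and 354 CPM in each deletion, against 637 to 1201 CPM in the site-deletion clones, so that 680kinv overlapped them (edgeR adjusted p = 0.098). Both F121-9 libraries, at 851 and 671 CPM, also lay within the site-deletion range of Tet1. The Tet1 call was lost without 100kdel and also without 245kdel. Tet3, of the same family, gave 18.6, 12.5 and 12.3 CPM against 5.27 to 11.1 CPM without overlap (difference 1.07, limma adjusted p = 0.014). It gave 14.1 and 20.7 CPM in F121-9, and it lost its call when any 1 of the 3 large-interval libraries was left out.

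Neuronal adhesion and synapse genes had 3 of 32 called higher, beside 3.24% of all genes, among them Cntn1 (2.69) and Gphn (0.65). Gphn did not pass edgeR (adjusted p = 0.142) and kept its call in 4 of the 14 fits with 1 library left out. The Cntn1 call was lost without 100kdel and also without 245kdel. Cntn1, a neuronal adhesion molecule, was high in the deletions alone, at 17.9 and 17.6 CPM against 1.99 CPM in 680kinv and at most 2.23 CPM in the site-deletion libraries. Single members were called lower in 4 further lists: Sqle in cholesterol synthesis (1 of 21), Ddx58 among interferon-stimulated genes (1 of 9), Lama1 in endoderm (1 of 13) and Snurf among imprinted genes (1 of 30), beside 0.789% of all genes. The Snurf call was lost when any 1 of 9 libraries was left out. Those of Sqle, Ddx58 and Lama1 were lost without 100kdel and also without 245kdel. Ddx58 and Snurf did not pass edgeR (adjusted p = 0.074 and 0.093). In the other 15 lists no member passed. With run as a covariate, 7 members of 6 of these lists passed, and the FGF and ERK list and the naive list went from 1 to 3 calls each. The 15 lists cover formative and primed, polycomb, cohesin and CTCF, replication, immediate early, WNT, NODAL and BMP, hypoxia, ATF4, p53, heat shock, neuroectoderm, mesoderm, trophoblast and fibroblast genes.

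**Figure D4:**
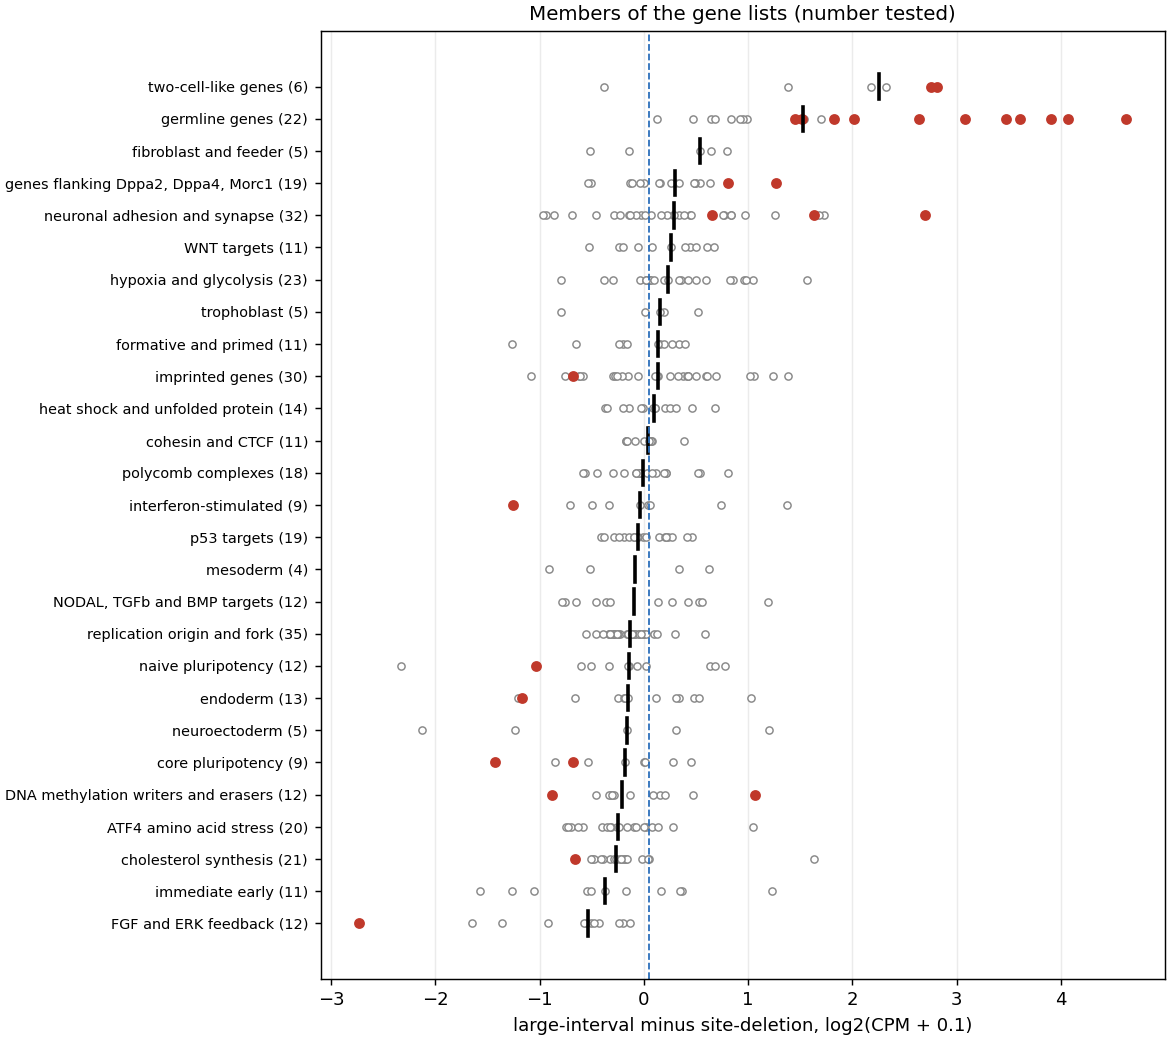
Log2 difference (large-interval minus site-deletion, horizontal axis) of each tested member of the 27 gene lists, with called members in red, others as open circles, the list median as a black bar and the median of all genes (0.05) as a dashed line. All 22 germline members lie to the right of 0 and all 12 FGF and ERK members to the left.

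On chromosome 16 the deposited table holds 6 segments that the authors drew over Dppa2, Dppa4 and Morc1. These genes did not pass on the mean of both copies, with differences of 0.49, 0.00 and 0.15. Single copies varied: the 129 copy of Dppa2 gave 0.175 CPM in 100kdel and 37.4 CPM in 245kdel, and that of Morc1 gave 285 and 15.4 CPM. Of 19 tested flanking genes 2 were called higher, beside 3.24% of all genes, with 4 when run was a covariate, 1 without 100kdel and 0 without 245kdel. Bbx (16:50191844-50432466, minus strand), an HMG-box protein, gave 158, 104 and 131 CPM against 55.9 to 101 CPM, a difference of 0.81 ± 0.16 (limma adjusted p = 0.0090), with 125 and 151 CPM in F121-9. Plcxd2 gave 8.14, 7.90 and 7.46 CPM against 2.34 to 4.99 CPM, a difference of 1.27 ± 0.26 (limma adjusted p = 0.010), with 4.22 and 8.18 CPM in F121-9. Neither group overlapped. Bbx lost its call without 245kdel, and Plcxd2 without either deletion.

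The calls were spread over the autosomes, from 1.62% of tested genes on chromosome 17 to 6.10% on chromosome 6. On single copies, 435 of the 440 higher genes and 102 of the 107 lower genes had the same sign on the 129 and on the cast copy. The calls were made on the mean of both copies, so these counts describe the calls and do not support them.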

How the data were processed

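The submitters' processing notes name Bowtie2, bedtools and the build mm10 for the 16 Bru-seq libraries, with no roles. Their versions are not stated there. The column headers separate reads that support the reference, taken here as 129, from those that support the variant (cast). The deposited table is named RPKM, but its values are CPM: each of its 32 columns sums to 1000000. Division by the smallest value above 0 gave whole reads (tolerance 0.01) for 100% of values. The design had assumed RPKM; the test was the same.

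The widest of the lines of each autosomal symbol was used, as log2(mean CPM of both copies + 0.1), for 13564 genes with a mean of at least 0.2 CPM over 14 libraries. Fold changes on this scale understate low genes. The 3 and 11 libraries were compared in R 4.3.3 by limma 3.58.1, with moderated two-sided tests, a trend in the variance and Benjamini-Hochberg adjustment at 0.05, and with edgeR 4.0.16 and DESeq2 1.42.0 on the recovered reads as alternatives. Named genes were the 14 that rose and the 14 that fell most among passing genes with 1 direction in both runs, no overlap and a mean of at least 1 CPM in the higher group (names of only Gm or Rik numbers beyond the first 5 left out), up to 4 members of each list, and Dppa2, Dppa4 and Morc1. A gene that met this rule is not reported here. The other members of the germline list, the Eya1, Zfp36l1 and Caln1 values by copy, Gata4 and Pax6 were named outside the rule, some of them after their values were seen. An exact permutation test of the chromosome medians could not pass for any single chromosome after adjustment and is not reported. The members and lists were chosen with earlier results of these data known. Promoters were matched by symbol and strand within 500 bases of the start. The fits were tested on simulated data. Tables and figures were made in Python 3.11.15 (pandas 2.3.3, numpy 2.4.6, matplotlib 3.10.9).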

Additional observations from a re-analysis of the deposited data

Results flagged for a closer look

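Among 420 named and list genes, 3 (0.714%) moved in opposite directions in the 2 runs without overlap, beside 192 of all 13564 genes (1.42%): 680kinv lay outside all 5 site-deletion libraries of its run on one side, and both deletions outside all 6 of theirs on the other. Dppa5a, an RNA-binding protein of pluripotent cells, differed by -0.86 in the first run and 1.13 in the second, a change of 1.99 on the log2 scale (limma adjusted p = 0.794 for the interaction). For Thy1 the values were -1.02 and 1.76, a change of 2.78 (adjusted p = 0.910). For Esco2, a cohesin acetyltransferase, they were -0.27 and 0.22, a change of 0.49 (adjusted p = 0.841). No interaction passed, and edit and run cannot be told apart in these libraries.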

How the results depend on the processing

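The main count of 547 genes was 1101 with run as a covariate (786 higher, 315 lower), 91 with 100kdel and 245kdel averaged, 281 on the 129 copy, 285 on the cast copy and 828 by DESeq2 (542 higher, 286 lower), and ranged from 84 to 645 with each library left out. The calls with 1 direction in both runs were 91, 281, 285 and 824 under the last 4 of those settings and ranged from 84 to 642. The share of higher calls, 80.4%, was 70.0% with median centring (312 higher, 134 lower) and 67.8% with quantile normalization (460 higher, 219 lower). The second run alone gave 401 without the trend, 11 with the pair averaged, 3.6e+02 on the 129 copy (213 higher, 151 lower), 195 on the cast copy and 1651 by DESeq2, and 4 to 929 with a library left out. The first run alone gave 40 with a pseudocount of 1, 256 with no filter, 5 without the trend, 11 by edgeR and 81 by DESeq2, and 0 to 13 with a library left out. The interaction gave 6 and 8 with pseudocounts of 0.01 and 1, 148 with no filter and 4 by DESeq2. Without a.del and 4k.b.c, an alternative added after the data were seen, 621 genes passed. The cause was not tested. No named gene that was called changed sign. The medians of 14 of the 27 lists changed sign under at least 1 of 9 settings, for example naive pluripotency (-0.14 to 0.10) and NODAL and BMP targets (-0.09 to 0.26) without 680kinv, and those of the germline and the FGF and ERK lists did not. Of the 11 germline calls, 10 were shared under median centring, quantile normalization and edgeR, and 11 with run as a covariate and without 680kinv. A floor of 3 reads corresponded to 0.0452 to 0.165 CPM, so genes near 0 in the site-deletion clones have uncertain folds. No paired analysis was possible because the large-interval edits have 1 library each and carry no replicate number that pairs them with a site-deletion clone.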
